A study of Homo sapiens with 6 samples.

Results

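The 3 arrays hybridised with RNA from human umbilical vein endothelial cells (HUVECs) that had received a scrambled control small interfering RNA (siRNA) were described here, out of 6 arrays in the series. All probe sets that are not array controls and that carry exactly 1 gene symbol were taken, 41091 of the 54675 on the array. Of these, 97 were left out so that nothing that differs from person to person is shown, and the other 40994 measured 19725 genes. The arrays of the ANRIL siRNA group enter no value below, and since a single group is described there is no comparison of conditions and no test.

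HUVECs are primary endothelial cells taken from the vein of the umbilical cord, and the labels name Lonza as their source. They were grown in an endothelial medium without phenol red, to which serum, fibroblast, epidermal, vascular endothelial and insulin-like growth factors, heparin, ascorbic acid, hydrocortisone and an antibiotic and antifungal mix had been added. Scrambled siRNA was delivered with TransIT-X2, a transfection reagent that is not a liposome, and total RNA was taken with Trizol, labelled with biotin and hybridised to Affymetrix Human Genome U133 Plus 2.0 arrays. The sequence of the scrambled siRNA and the time from transfection to harvest were not given in the sources used here. Cells in this medium receive growth factors and hydrocortisone throughout, and the labels mention no flow over them, which limits them as a model of the vein wall.

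Endothelial cells line every vessel. They hold blood inside by junctions built on VE-cadherin and PECAM1, keep it fluid through anticoagulant and fibrinolytic proteins, set vessel tone through nitric oxide, prostanoids and endothelin, and admit leukocytes through adhesion molecules and chemokines. Endothelium of arteries, veins, lymphatics, brain and sinusoids shares a core programme, kept by ETS, SOX and GATA family factors, and carries further genes that are typical of each bed.

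The 3 control arrays gave values that were close to each other. Medians over all probe sets were 6.18, 6.14 and 6.17 on the log2 intensity scale for replicates 1, 2 and 3. RMA, the processing named by the submitters, usually makes the distribution of values alike across arrays, so near-equal medians do not show that the replicates agree. The pairwise Pearson correlations across the 54613 probe sets that are not array controls were 0.9974 for replicates 1 and 2, 0.9973 for 1 and 3, and 0.9977 for 2 and 3, with probe sets not being independent. The array's control probe sets for beta-actin read 0.56, 0.59 and 0.49 log2 units higher at the 3′ end than at the 5′ end, and those for GAPDH differed by -0.01, 0.01 and -0.01, so the 3 RNAs were alike by this measure of RNA integrity. The labels do not say whether the 3 replicates were separate cultures, donors or days, and the spread between them may therefore be technical.

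A level is the mean of the 3 arrays for the probe set of a gene with the highest such mean, on the log2 scale. Probe sets differ in how strongly they bind their target, so a level is not an amount of RNA, and the order of genes by level is not an order of abundance. To have a floor, 110 genes known for expression in tissues far from endothelium (lens, retina, pancreas, liver, muscle, testis and others) were read by the same rule. They lay between 3.48 and 8.61, with a median of 5.63, and their 95th percentile, 7.74, was taken as the background level, at percentile 67.3 among probe sets. By this rule 8390 of 19725 genes, 42.5%, were above background, that is above 7.74 on all 3 arrays, while 10953 were below it on all 3 and 382 lay on both sides. Array by array, 8520, 8625 and 8600 genes exceeded it. A gene is called not above background where at least 1 array failed to exceed the level, and such a gene may still be expressed at a level these probe sets do not separate from background.

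**Figure D1:**
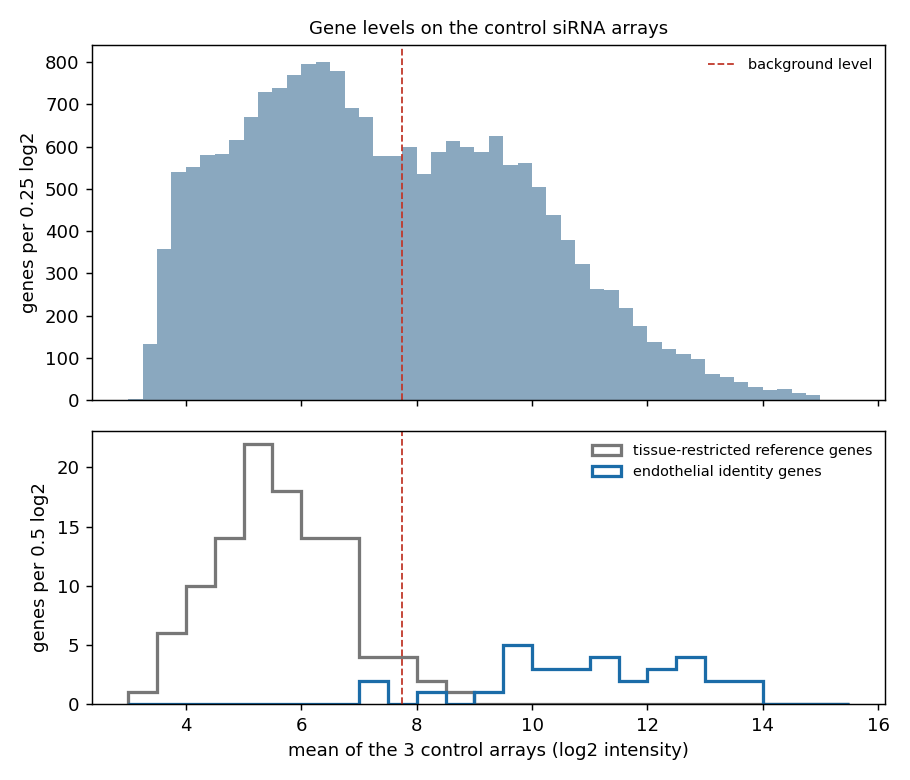
Distribution of gene levels over the 3 control arrays (upper panel, genes per bin of log2 intensity) and of the tissue-restricted reference genes and endothelial identity genes (lower panel). The dashed line marks the background level of 7.74. The 110 reference genes lay between 3.48 and 8.61 and the 32 identity genes between 7.24 and 13.53.

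The endothelial identity genes were nearly all above background, 30 of 32 (93.8%, against 42.5% of all genes), with a median level of 11.04 against 7.19 over all genes, and 19 of the 32 were in the top 10% of genes. The list was chosen with earlier results of these data known, so its count describes the cells and is no independent check of their label. On replicates 1, 2 and 3 in turn, VWF, the clotting protein stored in endothelial granules, read 13.51, 13.60 and 13.49. PECAM1, an adhesion molecule of the cell borders, read 13.40, 13.45 and 13.35. CDH5, the VE-cadherin of adherens junctions, read 12.56, 12.59 and 12.44. All 3 lay far above the background level on every array, and their 3 arrays differed by no more than 0.16 log2 units. The receptor TIE1 read 11.26, 11.31 and 11.25, its partner TEK, the angiopoietin receptor, 11.48, 11.55 and 11.44, and KDR, the main receptor for vascular endothelial growth factor, a mean of 10.99 (SD 0.015). ENG, a co-receptor for transforming growth factor beta, read 12.67, 12.74 and 12.74. The ETS factor ERG, a regulator of endothelial genes, read 10.91, 10.99 and 10.92. NOS3, the endothelial nitric oxide synthase, read 9.85, 10.01 and 9.88, and the tight junction protein CLDN5 read 9.63, 9.72 and 9.66. Each of these was above background on every array. Other members above background included ICAM2 at 13.53 (SD 0.064), CD93 at 13.17 (SD 0.055), MMRN1 at 12.89 (SD 0.155), ECSCR at 12.61 (SD 0.037), ROBO4 at 12.08 (SD 0.044) and EMCN at 11.57 (SD 0.035), all known from the endothelial surface or its secretions. CD34, a marker of progenitors and of endothelium in tissue, read 8.21, 8.06 and 8.20, just over the level. The remaining 2 members were not above background. PLVAP, which forms the diaphragms of fenestrae and caveolae, read 7.27, 7.25 and 7.25, and SOX18, one of the SOX factors of vessels, read 7.11, 7.35 and 7.25. Over the 32 genes the median SD of the 3 arrays was 0.059 and the largest range 0.303.

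**Figure D2:**
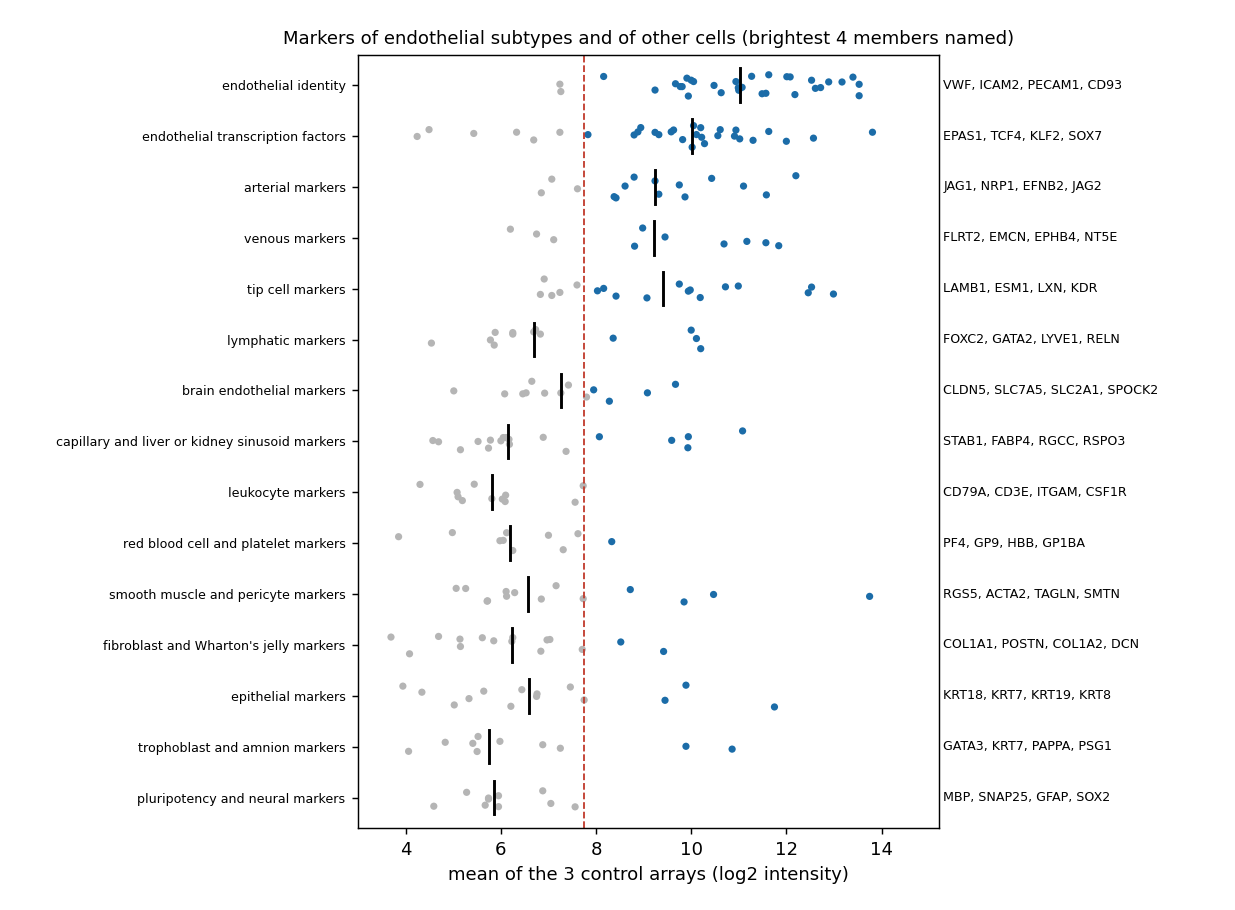
Levels (mean of 3 control arrays, log2 intensity) of markers of endothelial subtypes and of other cells, 1 point per gene, blue where all 3 arrays were above background and grey otherwise, with a black bar at each list's median and a dashed line at 7.74. Endothelial identity genes had a median of 11.04, and leukocyte markers a median of 5.81 with 0 of 11 above background.

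The promoters of identity genes held fewer CG pairs than those of most other genes above background. Windows of 300 bases, 250 before and 50 after each listed start, came from RefSeq for GRCh38.p14 and were found for 15352 of the 19725 genes. The CpG ratio, the count of CG pairs divided by that predicted from the C and G counts of the window, had a median of 0.84 in 7055 genes above background and 0.57 in 8297 genes not above it. For the 20 identity genes with a window it was 0.35, and 13 of these 20 (65.0%) lay under 0.5, against 9.3% of genes above background and 44.7% of those not above. The reference genes of other tissues had a median ratio of 0.21, and ribosomal protein genes, which all cells use, 0.91. No value of expression was used to compute these ratios, though the identity list is short and was chosen by hand.

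The 250 bases before the start are printed for 3 of these promoters to show the contrast, with each CG pair in capitals: TIE1 (chr1:43300732-43300981, plus strand) and ECSCR (chr5:139462744-139462993, minus strand) as endothelial promoters poor in CG, and EEF1A1 (chr6:73521033-73521282, minus strand), the gene of a translation elongation factor, as one rich in it. All are written 5′ to 3′ on the strand of the gene, on GRCh38.p14. TIE1 and ECSCR had the lowest CpG ratios of the 20 identity genes with a window, 0.04 and 0.11, so they are extremes of that list. Its median was 0.35 and its highest ratio 0.93, at TAL1.
TIE1: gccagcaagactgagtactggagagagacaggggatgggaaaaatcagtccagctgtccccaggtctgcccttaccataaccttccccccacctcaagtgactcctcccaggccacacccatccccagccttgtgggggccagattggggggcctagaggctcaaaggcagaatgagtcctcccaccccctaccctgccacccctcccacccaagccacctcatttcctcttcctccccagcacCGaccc
ECSCR: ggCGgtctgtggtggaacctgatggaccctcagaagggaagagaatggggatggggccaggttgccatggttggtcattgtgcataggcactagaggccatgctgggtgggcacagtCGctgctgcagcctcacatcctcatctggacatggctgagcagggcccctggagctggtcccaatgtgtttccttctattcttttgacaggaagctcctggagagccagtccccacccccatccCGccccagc
EEF1A1: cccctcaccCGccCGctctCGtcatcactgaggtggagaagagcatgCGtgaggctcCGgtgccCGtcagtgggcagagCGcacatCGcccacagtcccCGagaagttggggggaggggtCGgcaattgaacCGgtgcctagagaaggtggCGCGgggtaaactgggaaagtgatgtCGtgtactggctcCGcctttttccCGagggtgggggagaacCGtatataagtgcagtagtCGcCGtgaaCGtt
The TIE1 stretch held 1 CG pair in 250 bases at 61.6% GC, that of ECSCR held 3 at 60.0% GC, and that of EEF1A1 held 20 at 61.6% GC. GC content was thus nearly the same in the 3 while the number of CG pairs differed. EEF1A1 read 15.07, 15.08 and 15.08 on the 3 arrays, TIE1 11.26, 11.31 and 11.25, and ECSCR 12.58, 12.65 and 12.61, so a promoter poor in CG pairs was found at genes far above background.

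Short motifs, searched on both strands of the windows, were distributed unevenly as well. CCGGAAG is a core of ETS family sites that contains a CG pair. It was present in 20.6% of windows of genes above background, 8.8% of those not above and 10.6% of all promoters in the table. For ribosomal protein genes the share was 35.2%. It was 0.0% for the 20 identity genes, whose median CpG ratio was 0.35, and 0.0% for endothelial transcription factor genes, with a median ratio of 0.74. Other forms of the ETS site were not searched. TATAAA, a form of the TATA box, was present in 5.4% of windows above background, 12.1% of those not above, 38.8% for reference genes of other tissues, 40.9% for chemokines and 12.1% of all promoters. Between 25 and 35 bases before the start, where a TATA box usually lies, it was found in 30.9% of reference genes, 25% of chemokines and 1.5% of genes above background. CCAAT was present in 85.0% of windows of mitotic and S phase genes against 36.0% of those above background and 35.4% of all promoters. AGATAA, a form of GATA sites, was present in 17.5% of identity genes and 20.2% of endothelial transcription factor genes, against 4.8% above background and 10.6% of all promoters. It was as frequent in lists that are not endothelial, at 19.7% of reference genes of other tissues and 22.7% of chemokines, whose windows were also poor in CG pairs. A match describes letters, not a bound site, and the absence of a match says only that these letters are not in the window.

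For the ETS core and the TATA box, 1 example each is printed with the motif in capitals, again 250 bases before the start on GRCh38.p14: RPS18 (chr6:33271825-33272074, plus strand), a protein of the small ribosomal subunit, and INS (chr11:2161210-2161459, minus strand), the insulin gene, a reference gene of another tissue.
RPS18: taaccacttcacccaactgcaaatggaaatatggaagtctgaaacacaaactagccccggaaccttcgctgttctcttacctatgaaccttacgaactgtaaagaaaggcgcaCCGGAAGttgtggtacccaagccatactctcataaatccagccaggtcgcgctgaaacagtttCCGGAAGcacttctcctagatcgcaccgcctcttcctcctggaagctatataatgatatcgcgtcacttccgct
INS: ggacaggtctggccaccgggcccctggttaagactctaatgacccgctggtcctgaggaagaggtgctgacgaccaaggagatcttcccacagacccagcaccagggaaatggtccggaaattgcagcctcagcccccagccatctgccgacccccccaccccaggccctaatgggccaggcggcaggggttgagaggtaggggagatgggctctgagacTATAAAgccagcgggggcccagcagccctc
RPS18 had 2 copies of CCGGAAG and 13 CG pairs and read 14.79, 14.81 and 14.80 on the 3 arrays. INS had TATAAA 30 bases before its start and 7 CG pairs and read 4.81, 5.07 and 5.05, below background on every array.

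**Figure D3:**
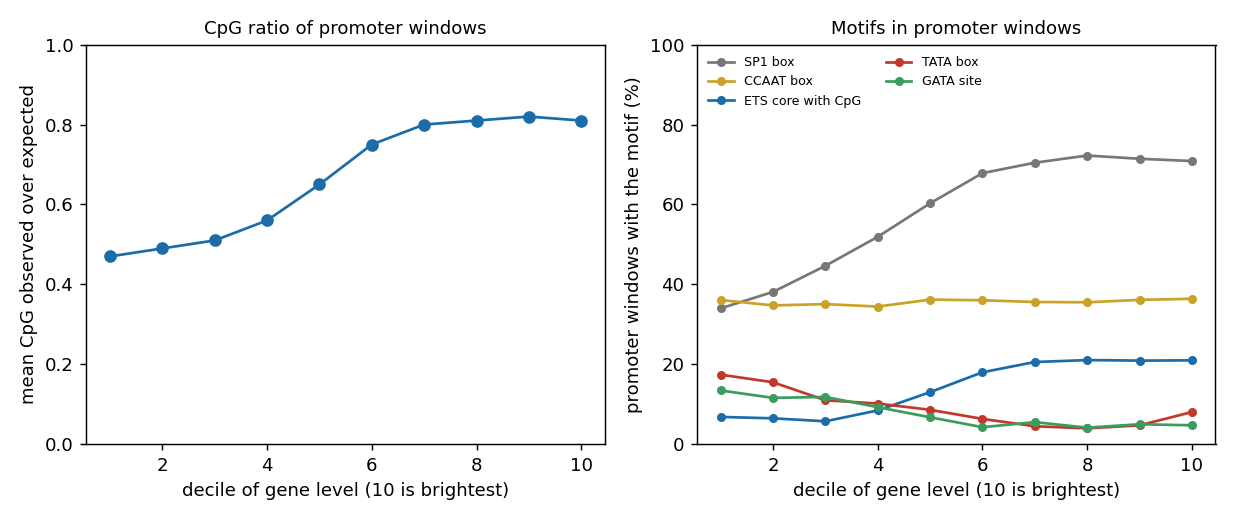
Promoter windows of 300 bases by decile of gene level, with decile 10 the highest. The left panel plots the mean CpG observed over expected ratio, which was 0.47 in decile 1, 0.82 in decile 9 and 0.81 in decile 10; the right panel plots the percentage of windows that held each motif, of which the CCAAT box stayed between 34.5% and 36.4%.

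Transcription factors known for endothelium were above background in 25 of 31 measured genes (80.6%, against 42.5% of all genes), with a median of 10.02. EPAS1, the hypoxia factor named for endothelium, read 13.81, 13.83 and 13.78. KLF2, a factor induced by blood flow, read 12.04, 12.01 and 11.95, and the labels mention no flow over these cultures; its relative KLF4 read 9.53, 9.67 and 9.54. FLI1 and ERG, ETS factors, had means of 11.02 (SD 0.090) and 10.94 (SD 0.043). TAL1, LMO2 and LYL1, which act together in blood and vessel development, had means of 10.05 (SD 0.043), 10.28 (SD 0.061) and 10.61 (SD 0.041). GATA2, a GATA factor of endothelium and blood stem cells, read 10.09, 10.14 and 10.09. Not above background were ETV2, the embryonic factor that starts the endothelial lineage, at 5.35, 5.42 and 5.52, SPI1, a myeloid ETS factor, at 4.50, 4.60 and 4.38, FEV at 6.33 (SD 0.061), NKX2-3 at 4.24 (SD 0.140), PROX1 at 6.69 (SD 0.094) and SOX18.

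HOX genes, which record position along the body axis, were above background in 8 of 28 measured (28.6%, against 42.5% of all genes), and in 13 with the 90th percentile of the reference genes as the level. In the HOXB cluster 6 of 10 were above it, HOXB2, HOXB3, HOXB4, HOXB5, HOXB6 and HOXB7, with HOXB7 at 10.44, 10.45 and 10.44 and HOXB3 at 10.13, 10.18 and 10.08. HOXB1 read 5.53, 5.28 and 5.48, HOXB8 6.95, 7.16 and 6.85, HOXB9 7.37, 7.20 and 7.38 and HOXB13 5.53, 5.45 and 5.55, so the members at both ends of the cluster were below the level. In the HOXC cluster 0 of 9 were above background, the highest being HOXC5 at 7.39 (SD 0.050). In the HOXD cluster HOXD1 at 8.82, 9.02 and 8.90 and HOXD8 at 8.72, 8.72 and 8.81 were above it, 2 of 8. Of the HOXA cluster only HOXA2 was measured, at 5.80 (SD 0.005), and 10 further HOXA genes were not analysed here.

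Markers of arteries and veins were found together in these vein cells. Of the arterial markers 12 of 15 were above background (80.0%, against 42.5% of all genes), with a median of 9.24, and of the venous markers 7 of 10 (70.0%), with a median of 9.21. The ligand EFNB2, an ephrin of arteries, read 11.13, 11.08 and 11.07, and its receptor EPHB4, typical of veins, read 11.10, 11.20 and 11.21. JAG1, a Notch ligand, read 12.15, 12.22 and 12.23, NOTCH1 read 9.90, 9.89 and 9.83 and the Notch target HEY2 9.29, 9.32 and 9.37. The arterial Notch ligand DLL4 read 7.20, 6.88 and 7.15, DLL1 6.80, 7.02 and 6.74, and the arterial connexin GJA4 7.41, 7.66 and 7.75. These 3 were not above background, though GJA4 exceeded the level on replicate 3. On the venous side, NT5E, an enzyme that makes adenosine, read 10.86, 10.68 and 10.54, and the semaphorin and growth factor receptor NRP2 9.52, 9.44 and 9.37. NRP1, its arterial relative, read 11.60, 11.69 and 11.45. ACKR1, a chemokine-binding protein of venules, read 6.82, 6.77 and 6.67, the apelin receptor APLNR 6.31, 6.30 and 5.98 and the prostacyclin synthase PTGIS 7.07, 7.14 and 7.12, none above background. NR2F2, the main venous regulator, was not analysed here.

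Of 13 lymphatic markers 4 were above background (30.8%, against 42.5% of all genes), namely LYVE1, FOXC2, GATA2 and RELN. PROX1, the regulator of lymphatic identity, read 6.66, 6.61 and 6.79, PDPN, the podoplanin of lymphatic endothelium, 6.25, 6.07 and 6.44, and FLT4, the receptor for VEGFC, 6.68, 6.86 and 6.93. LYVE1, a hyaluronan receptor of lymphatics that is also found in some veins and sinusoids, read 10.02, 10.10 and 9.89, and FOXC2, a factor of lymphatic valves, 10.17, 10.29 and 10.15. GATA2 and RELN, a secreted glycoprotein, had means of 10.11 (SD 0.028) and 8.36 (SD 0.039). PROX1, PDPN and FLT4 were thus below background on every array, and the 4 named first were above it on every array. Brain endothelial markers gave 4 of 13 above background, which were CLDN5, SLC7A5, SLC2A1 and SPOCK2, and 7 with the 90th percentile of the reference genes as the level. The lipid transporter MFSD2A read 7.52, 7.29 and 7.44, the drug pump ABCB1 6.65, 6.70 and 6.62 and the thyroid hormone transporter SLCO1C1 5.10, 4.82 and 5.11, none above background. Of capillary and sinusoid markers 5 of 18 (27.8%, against 42.5% of all genes) were above background. STAB1, a scavenger receptor of sinusoids, read 11.03, 11.19 and 11.02, whereas its relative STAB2 read 5.73, 5.66 and 5.94. FABP4, a fatty acid binding protein of capillaries, read 9.86, 9.93 and 10.03, but CD36, the fatty acid receptor, read 4.47, 4.70 and 4.53 and GPIHBP1, which anchors lipoprotein lipase in capillaries, 5.25, 5.08 and 5.13. Tip cell markers, typical of sprouting vessels, were above background in 13 of 18 (72.2%, against 42.5% of all genes), among them ESM1 at 12.64, 12.47 and 12.47 and ANGPT2, an angiopoietin, at 9.92, 10.02 and 9.87, while APLN read 7.12, 7.39 and 7.21.

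Markers of other cells gave 11 of 83 above background (13.3%, against 42.5% of all genes), with a median of 6.10, and 22 with the 90th percentile of the reference genes as the level. Of 11 leukocyte markers 0 were above it (2 with the 90th percentile), and PTPRC, the pan-leukocyte CD45, read 4.27, 4.44 and 4.20. Among smooth muscle and pericyte markers 4 of 14 were above it. RGS5, a regulator of G protein signalling in pericytes, read 13.74, 13.75 and 13.75, ACTA2, the smooth muscle actin, 10.42, 10.52 and 10.48, and TAGLN, an actin-binding protein, 9.74, 9.95 and 9.86. MYH11, the smooth muscle myosin, read 7.89, 7.54 and 7.75, PDGFRB, the receptor of pericytes, 6.19, 6.11 and 6.03, and CSPG4 5.30, 5.10 and 5.37. None of these 3 was above background on all arrays, MYH11 lying on both sides of the level and the other two below it throughout. Fibroblast markers gave 2 of 15, COL1A1 at 9.45, 9.35 and 9.47 and POSTN at 8.44, 8.50 and 8.63, with LUM at 3.75, 3.68 and 3.65 and PDGFRA at 5.48, 5.63 and 5.72. The fibroblast count was 0 with the median over a gene's probe sets, and also 0 without probe sets that may cross-hybridise. Epithelial markers gave 3 of 14, the keratins KRT18 at 11.71, 11.81 and 11.73, KRT7 at 9.81, 9.89 and 9.97 and KRT19 at 9.32, 9.48 and 9.56, with EPCAM at a mean of 5.64 (SD 0.157) and CDH1 at 4.39, 4.23 and 4.41. Among trophoblast and amnion markers GATA3 read 10.86, 10.91 and 10.80, and KRT7 counted in this list too; placental hormone genes such as CGA, at 5.50 (SD 0.043), were not above background. Of red blood cell and platelet markers 1 of 10 was above background, the platelet chemokine PF4 at 8.30, 8.26 and 8.43, and 0 of 10 pluripotency and neural markers were. Which cells the RNA of RGS5, KRT18 or GATA3 came from was not tested, and in bulk RNA fewer cells of a type and less RNA per cell cannot be told apart.

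Among receptor tyrosine kinases 21 of 52 were above background (40.4%, close to the 42.5% of all genes). They included AXL, which binds apoptotic cells through GAS6, at 11.62, 11.69 and 11.62, FLT1, a decoy-like receptor for vascular endothelial growth factor, at 11.55, 11.56 and 11.61, and MET, the hepatocyte growth factor receptor, at 10.36, 10.49 and 10.45. FGFR1, a receptor for the fibroblast growth factor supplied in the medium, read 9.86, 9.97 and 9.83, and FGFR2, FGFR3 and FGFR4 had means of 7.42 (SD 0.058), 7.36 (SD 0.111) and 7.03 (SD 0.044), none above background. EGFR, the receptor for epidermal growth factor, read 8.66, 8.94 and 8.65, and IGF1R, that for insulin-like growth factor, 9.25, 9.29 and 9.19. INSR, the insulin receptor, read 7.56, 7.65 and 7.58, below background on every array, and KIT, the receptor for stem cell factor, 7.78, 8.24 and 7.74, on both sides of it. The receptors of the growth factors in this medium were thus each represented by a gene above background.

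In the transforming growth factor beta and BMP family 10 of 13 receptors were above background (76.9%, against 42.5% of all genes), with a median of 9.01. TGFBR2 read 12.76, 12.83 and 12.70, BMPR2 12.03, 11.98 and 12.01, and ACVRL1, the endothelial type I receptor, 11.34, 11.50 and 11.37, with TGFBR1 at 8.61, 8.60 and 8.54. BMPR1B, ACVR1C and AMHR2 had means of 6.88 (SD 0.144), 6.28 (SD 0.146) and 6.02 (SD 0.161), not above background. Cytokine receptors gave 20 of 33 (60.6%), led by IL1RL1, which binds interleukin 33, at 14.08, 14.05 and 14.10, and IL6ST, the shared signalling chain of the interleukin 6 family, at 13.84, 13.75 and 13.72. IL6R, the chain that binds interleukin 6 itself, read 7.17, 7.54 and 7.34, not above background. TNFRSF1A read 10.34, 10.43 and 10.41, TNFRSF1B 8.57, 8.63 and 8.72, and both chains of the interferon gamma receptor were above background, IFNGR1 at 10.49 (SD 0.091) and IFNGR2 at 11.23 (SD 0.016). IL33, the ligand of IL1RL1, also lay above it at 9.96, 9.78 and 9.59.

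G protein-coupled receptors studied in endothelium gave 17 of 60 above background (28.3%, against 42.5% of all genes). ADGRL4, an adhesion receptor of vessels, read 13.24, 13.12 and 12.99, F2R, the main thrombin receptor, 12.18, 11.97 and 11.93, and the sphingosine phosphate receptors S1PR1 10.54, 10.48 and 10.41 and S1PR3 11.26, 11.32 and 11.27. S1PR2 read 6.61, 6.50 and 6.55, S1PR4 7.14, 7.03 and 7.10 and S1PR5 6.14, 6.11 and 6.25, none above background. PTGER4, a receptor for prostaglandin E, read 11.46, 11.54 and 11.53. HRH1, through which histamine opens venules, read 7.94, 7.99 and 7.95, just above background on each array. Receptors for angiotensin and bradykinin were not above background, with AGTR1 at 4.49 (SD 0.071), AGTR2 at 4.85 (SD 0.037), BDKRB1 at 5.11 (SD 0.051) and BDKRB2 at 5.77 (SD 0.139). EDNRB, the endothelial receptor for endothelin, read 6.78, 6.72 and 6.96, also not above it.

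Among receptors of the innate immune system 8 of 23 were above background (34.8%, beside 42.5% of all genes). TLR4, the receptor for bacterial lipopolysaccharide, was the sole Toll-like receptor of the list among them, at 10.14, 10.12 and 10.19. Its co-receptor LY96 read 10.09, 10.10 and 10.04 and its adaptor MYD88 10.55, 10.66 and 10.61, whereas CD14, which hands lipopolysaccharide to it, read 5.07, 5.17 and 5.08. TLR3, the receptor for double-stranded RNA, read 4.27, 4.20 and 3.97, and its 3 probe sets lay between 3.82 and 4.15. The cytosolic RNA sensor RIGI read 8.74, 8.78 and 8.70, and its relative IFIH1 5.53, 5.73 and 5.66. STING1, the adaptor for cytosolic DNA sensing, read 9.21, 9.32 and 9.28, and the sensor upstream of it, CGAS, 5.44, 5.59 and 5.66. Interferon-stimulated genes gave 6 of 25 above background (24.0%, against 42.5% of all genes), or 10 with the 90th percentile of the reference genes as the level. The 6 were IFI27 at 10.96, 10.95 and 10.98, ISG15 at 10.09, 10.16 and 10.20, IRF7 at 8.72 (SD 0.050), IFI6 at 8.66 (SD 0.037), IFI44 at 8.66 (SD 0.162) and USP18 at 8.65 (SD 0.114). IFIT1 read 5.67, 5.67 and 5.90, MX1 6.08, 6.42 and 6.59, OAS1 6.18, 6.31 and 6.26, RSAD2 5.15, 5.17 and 5.47 and CXCL10 5.70, 5.68 and 5.52, none above background. Cells that had not been transfected were not analysed here, and the part of transfection in these levels was not tested.

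Nuclear receptors were above background in 17 of 39 (43.6%, near the 42.5% of all genes), in 8 with the median over a gene's probe sets and in 11 with the 99th percentile of the reference genes as the level. NR2F1, an orphan receptor related to NR2F2, read 11.17, 11.25 and 11.22, NR3C1, the glucocorticoid receptor that binds the hydrocortisone of the medium, 10.62, 10.75 and 10.72, and RARB, a retinoic acid receptor, 10.45, 10.38 and 10.44. PPARD read 9.58, 9.57 and 9.49, whereas PPARG read 5.77, 5.99 and 5.83. The estrogen receptors ESR1 and ESR2 read 7.38, 7.33 and 7.53 and 6.55, 6.40 and 6.50, and PGR, the progesterone receptor, 4.71, 4.65 and 4.92, none above background.

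**Figure D4:**
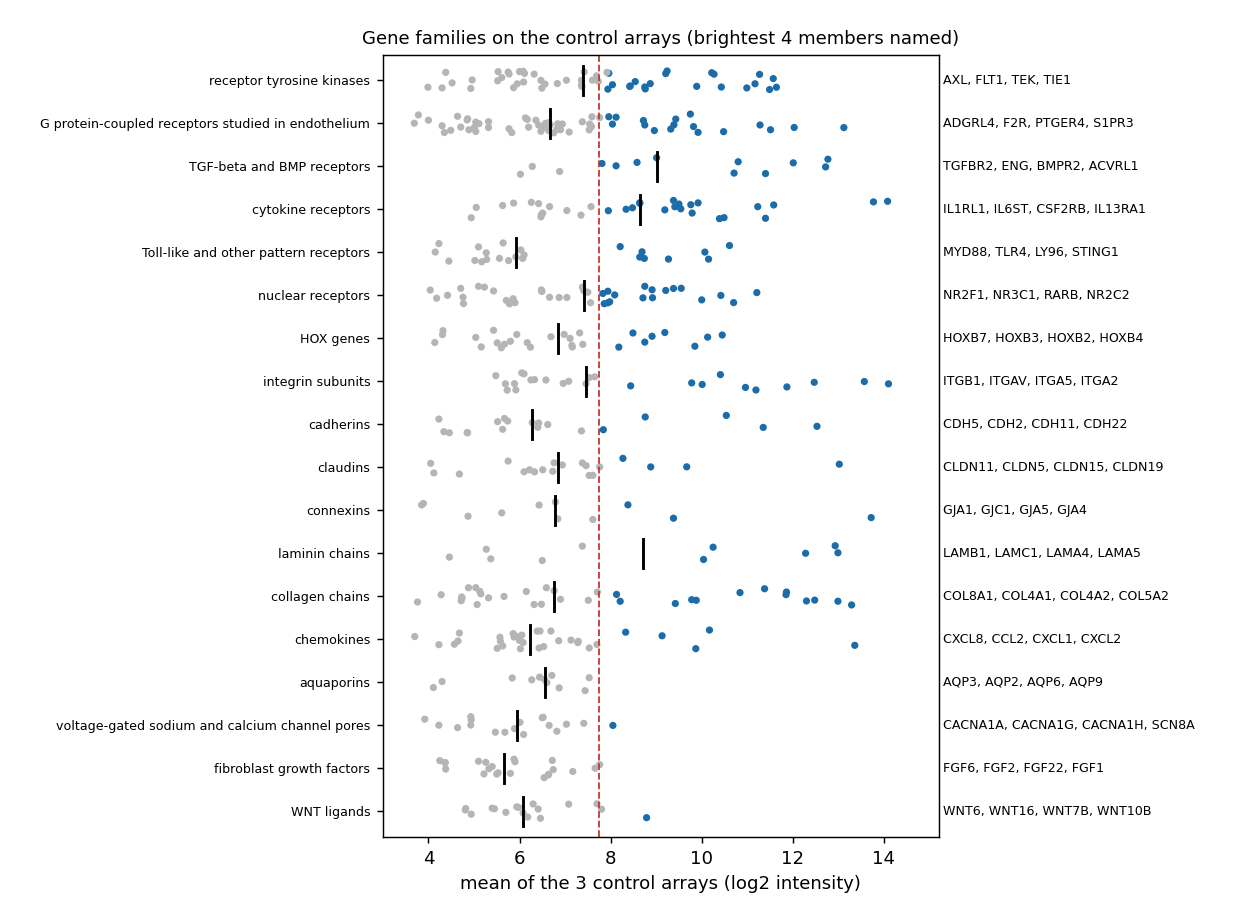
Levels (mean of 3 control arrays, log2 intensity) of the members of 18 gene families, 1 point per gene, blue where all 3 arrays were above background and grey otherwise, with a black bar at each family's median and a dashed line at 7.74. TGF-beta and BMP receptors had 10 of 13 members above background, aquaporins 0 of 11 and fibroblast growth factors 0 of 22.

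Claudins, connexins and cadherins had smaller shares of members above background than the 42.5% of all genes. Of 20 claudins, the sealing proteins of tight junctions, 4 were above background, CLDN11 at 13.07, 13.00 and 12.99, CLDN5, CLDN15 at 8.88 (SD 0.127) and CLDN19 at 8.27 (SD 0.064); 9 were with the 90th percentile of the reference genes as the level, and 8 without probe sets that may cross-hybridise. Of 11 connexins, which form gap junctions, 3 were above it, with GJA1 at 13.68, 13.76 and 13.72, GJC1 at 9.38 (SD 0.098) and the arterial GJA5 at 8.38 (SD 0.105). Cadherins gave 5 of 19, among them CDH5, CDH2, the N-cadherin of contacts with mural cells, at 11.30, 11.42 and 11.33, and CDH11 at 10.52, 10.55 and 10.56. Integrin subunits gave 10 of 25 (40.0%), near the 42.5% of all genes. ITGB1, the common beta chain, read 14.12, 14.09 and 14.09, ITGAV 13.60, 13.53 and 13.60, and ITGA5, its partner for fibronectin, 12.46, 12.50 and 12.46. Alpha and beta chains typical of leukocytes, ITGB2 at 6.55, 6.53 and 6.66 and ITGAL at 5.34, 5.56 and 5.54, were not above background, and neither was ITGA1, a collagen receptor chain, at a mean of 5.89 (SD 0.091). Among all 23 measured junction proteins 15 were above it (65.2%), and occludin, OCLN, read 7.70, 7.87 and 7.85, on both sides of the level.

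Ion and water channels were mostly not above background, while 42.5% of all genes were above it. Of 11 aquaporins 0 were above it, and AQP1, the water channel of many endothelia, read 6.29, 6.42 and 6.09; with the 90th percentile of the reference genes as the level 2 aquaporins exceeded it. Of 18 pore genes of voltage-gated sodium and calcium channels 1 was above it, CACNA1A at a mean of 8.05 (SD 0.130). That count was 2 with the 90th percentile as the level and 0 with the 99th. It was also 0 with the median over a gene's probe sets, or without probe sets that may cross-hybridise. Of 23 potassium, TRP, store-operated and PIEZO channel genes 5 were above background, and 10 with the 90th percentile as the level. PIEZO1, which opens on stretch and flow, read 11.30, 11.39 and 11.39, ORAI1, the store-operated calcium channel, 9.43, 9.56 and 9.46, and KCNJ2, the inward rectifier of endothelium, 8.49, 8.70 and 8.43. TRPV4 read 7.18, 7.20 and 6.95, not above background.

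The basement membrane collagens COL4A1 and COL4A2 read 13.03, 13.06 and 12.89 and 12.45, 12.57 and 12.41, COL8A1, a short-chain collagen of vessels, 13.34, 13.24 and 13.29, and COL18A1 11.31, 11.45 and 11.37. Of 33 collagen chains 13 were above background (39.4%, beside 42.5% of all genes), 7 without probe sets that may cross-hybridise and 20 with the median of all probe sets as the level. COL4A3 and COL4A4, the chains of kidney and lung basement membranes, had means of 4.73 (SD 0.223) and 4.88 (SD 0.212), and COL3A1, a fibrillar collagen, 5.15 (SD 0.022). Laminin chains gave 5 of 10, LAMA4 at 12.33, 12.33 and 12.18, LAMA5 at 10.23, 10.30 and 10.23, LAMB1 at 13.07, 13.03 and 12.86, LAMB2 at 10.04 (SD 0.092) and LAMC1 at 12.93 (SD 0.069), which are the chains of endothelial laminins. LAMA1 and LAMA2 read 5.29, 5.52 and 5.00 and 5.23, 5.43 and 5.45. Of 27 other matrix genes 19 were above background (70.4%), with a median of 11.16. FN1, fibronectin, read 14.73, 14.72 and 14.71, EFEMP1, a fibulin, 14.73, 14.72 and 14.74, MGP, an inhibitor of calcification, 13.88, 13.89 and 13.79, and HSPG2, perlecan, 13.65, 13.69 and 13.65. ELN, elastin, read 6.79, 6.89 and 6.87 and FBLN5 6.02, 6.08 and 6.04, not above background.

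Of 25 coagulation and fibrinolysis genes 11 were above background (44.0%), near the 42.5% of all genes. TFPI, an inhibitor of the start of clotting, read 12.94, 12.96 and 12.88, PROCR, the receptor of protein C, 12.47, 12.48 and 12.49, and THBD, thrombomodulin, 10.02, 10.15 and 10.04. PLAT, the tissue plasminogen activator, read 11.75, 11.85 and 11.77. F3, tissue factor, which starts clotting, read 6.42, 6.69 and 6.63, and F8, clotting factor VIII, 6.36, 6.65 and 6.56, neither above background. Liver-made factors F2, F7, F9, F10, PLG, FGB and FGG had means between 4.27 (SD 0.086) and 6.71 (SD 0.087), and none was above background.

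Of 23 genes of vasoactive mediators 12 were above background (52.2%, beside 42.5% of all genes). EDN1, the vasoconstrictor endothelin 1, read 13.30, 13.33 and 13.33, and ECE1, the enzyme that matures it, 11.41, 11.49 and 11.38, whereas EDN2 and EDN3 had means of 6.30 (SD 0.058) and 5.32 (SD 0.077). Of the nitric oxide synthases NOS3 was above background and NOS1 and NOS2 read 5.77, 5.92 and 5.69 and 5.55, 5.30 and 5.57. PTGS2, the inducible cyclooxygenase, read 12.12, 12.11 and 12.12, and PTGS1 10.62, 10.62 and 10.59. ACE, the angiotensin-converting enzyme, read 7.82, 7.88 and 7.76, close above the level. CAV1, the coat protein of caveolae and a binding partner of NOS3, read 13.22, 13.21 and 13.07, and 8 of 9 caveolar genes were above background; CAVIN4, a muscle form, read 4.91, 4.67 and 4.70.

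Leukocyte adhesion molecules were above background in 12 of 15 (80.0%, against 42.5% of all genes), with a median of 9.66. ICAM2, present on resting endothelium, read 13.54, 13.58 and 13.45. The 3 molecules that inflammatory cytokines induce were also above it, ICAM1 at 9.62, 9.77 and 9.57, VCAM1 at 8.79, 8.75 and 8.89 and SELE, E-selectin, at 8.84, 8.70 and 8.80. SELP, P-selectin, read 8.99, 9.13 and 8.83, and MADCAM1, the addressin of gut venules, 6.12, 6.01 and 6.07, the latter not above background. Chemokines gave 5 of 32 (15.6%), and 10 with the 90th percentile of the reference genes as the level. CXCL8, which draws neutrophils, read 13.35, 13.34 and 13.40, CCL2, which draws monocytes, 10.22, 10.28 and 10.02, CXCL1 9.86, 9.89 and 9.84 and CXCL2 9.06, 9.25 and 9.09, and the fifth was PF4. CX3CL1, fractalkine, read 6.67, 6.71 and 6.70, CCL5 6.91, 6.81 and 6.86 and CXCL12 7.23, 7.26 and 7.40, none above background.

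Growth factors and interleukins gave 18 of 41 above background (43.9%, near the 42.5% of all genes). BMP6 read 11.87, 11.95 and 11.86, BMP4 10.38, 10.51 and 10.31, VEGFC, the lymphatic growth factor, 10.18, 10.21 and 10.19, and PGF, the placental growth factor, 10.40, 10.04 and 10.12. IL6 read 9.32, 9.48 and 9.44, while IL1A read 4.98, 5.23 and 5.28, IL1B 7.50, 7.42 and 7.48 and TNF 5.77, 6.05 and 5.88, not above background. ANGPT2, the antagonist of TEK made by endothelium, was above background as given above, and ANGPT1, its agonist made by mural cells, read 5.79, 5.59 and 5.70. Of 22 fibroblast growth factors 0 were above background, with FGF2 at 7.51, 7.67 and 7.80, on both sides of the level. Of 17 WNT ligands 1 was, WNT6 at 8.88, 8.76 and 8.74. Without replicate 2, the counts were 1 fibroblast growth factor and 2 WNT ligands, and with the 90th percentile of the reference genes as the level they were 3 and 3.

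The housekeeping groups lay at the top of the scale. Of 50 ribosomal protein genes measured of 73 listed, 49 were above background, with a median of 14.36. The exception, RPLP2, read 6.54, 6.61 and 6.66, with its 2 probe sets at 6.60 and 3.74, and RPL27A read 9.04, 8.98 and 9.05. All 31 measured nuclear genes of oxidative phosphorylation were above background, with a median of 11.83 and a lowest member, NDUFS1, at 10.09 (SD 0.048), and all 13 glycolytic enzymes were, with a median of 13.00. Without probe sets that may cross-hybridise, 21 ribosomal protein genes, 22 genes of oxidative phosphorylation and 4 glycolytic enzymes were above background. Genes read only by such probe sets are not counted there. PKM, the last enzyme of glycolysis, read 9.09, 9.20 and 9.21, and its 2 probe sets had means of 9.17 and 7.05. Among glucose transporters SLC2A3 read 9.32, 9.30 and 9.25 and SLC2A1 8.35, 8.16 and 8.32, while SLC2A2 and SLC2A4, those of liver and of muscle and fat, read 3.79, 3.86 and 3.96 and 4.53, 4.61 and 4.58. Of 25 mitotic and S phase genes 9 were above background (36%, beside 42.5% of all genes), 17 with the 90th percentile of the reference genes as the level and 5 with the 99th. Among the 9 were genes of DNA replication, PCNA at 10.54, 10.67 and 10.45, TYMS at 10.20, 10.30 and 10.21, MCM6 at 9.80 (SD 0.092) and MCM3 at 9.45 (SD 0.146), and CCNB1, a mitotic cyclin, at 8.19, 8.28 and 8.18. MKI67, a marker of cycling cells, read 7.20, 7.18 and 6.97, TOP2A 5.75, 5.89 and 5.91, CDK1 6.56, 6.82 and 6.79 and PLK1 6.23, 6.06 and 6.08, none above background.

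The 25 genes of highest level lay between 14.57 and 15.08. They comprised 11 ribosomal protein genes, 2 mitochondrially encoded subunits of cytochrome c oxidase (COX1 and COX2) and 12 others, EEF1A1, GAPDH, the intermediate filament gene VIM, the ferritin gene FTL, TMSB10, ANXA2, TPT1, EFEMP1, LGALS1, FN1, CD9 and ACTB. Beside genes that every cell uses, this set thus held the matrix genes EFEMP1 and FN1, given above, and CD9, a tetraspanin of the cell surface, which read 14.63, 14.65 and 14.63. The median SD of the 25 genes over the 3 arrays was 0.011 and the largest 0.035.

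Spread between the arrays was small for most genes above background. Their median SD was 0.058 and their median range 0.112 log2 units, and 19 of the 8390 genes had a range over 0.5. By decile of level, the median SD was highest in decile 3, at 0.1, and lowest in decile 10, at 0.043. Replicate 2 was the highest of the 3 arrays for 60.1% of genes above background and replicate 1 the lowest for 55.4%, although the median over all probe sets was lowest on replicate 2. The difference of replicate 1 from the mean of the other arrays, taken as the median over the genes of a decile, ran from 0.034 in decile 4 to -0.058 in decile 7. These shifts were thus small and followed level. Whether they came from the cells or from the arrays was not tested.

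The 20 genes with the largest range among those above background showed another order. Replicate 1 was the highest array for 15 of the 20, against 14.9% of all genes above background, and replicate 3 the lowest for 12. MALAT1, an abundant long noncoding RNA kept in the nucleus, had the largest range and read 12.84, 10.95 and 11.46. RASEF, a Rab family GTPase, read 9.72, 8.84 and 8.72, and ANKRD36B, which has near-identical copies that its probes may share, 9.13, 8.22 and 8.16. LINC00607, a long noncoding RNA, read 8.87, 8.08 and 8.27, and KCNQ1OT1, the antisense transcript of an imprinted region, 8.39, 7.84 and 7.83. In these 5 genes replicate 1 stood above the other arrays. CXCR4, the receptor of CXCL12, read 9.66, 10.04 and 9.54, with replicate 2 highest, and BAX, a promoter of apoptosis, read 8.47, 8.89 and 8.97, with replicate 1 lowest. Long noncoding RNAs made up 3 of the 20 (15%) against 1.8% of genes above background. The last gene inside this group of 20, SRGAP2C, itself a copy of another gene, had a range of 0.482, and the first gene outside it 0.48. The genes were chosen by their range, so these values describe them and test nothing.

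**Figure D5:**
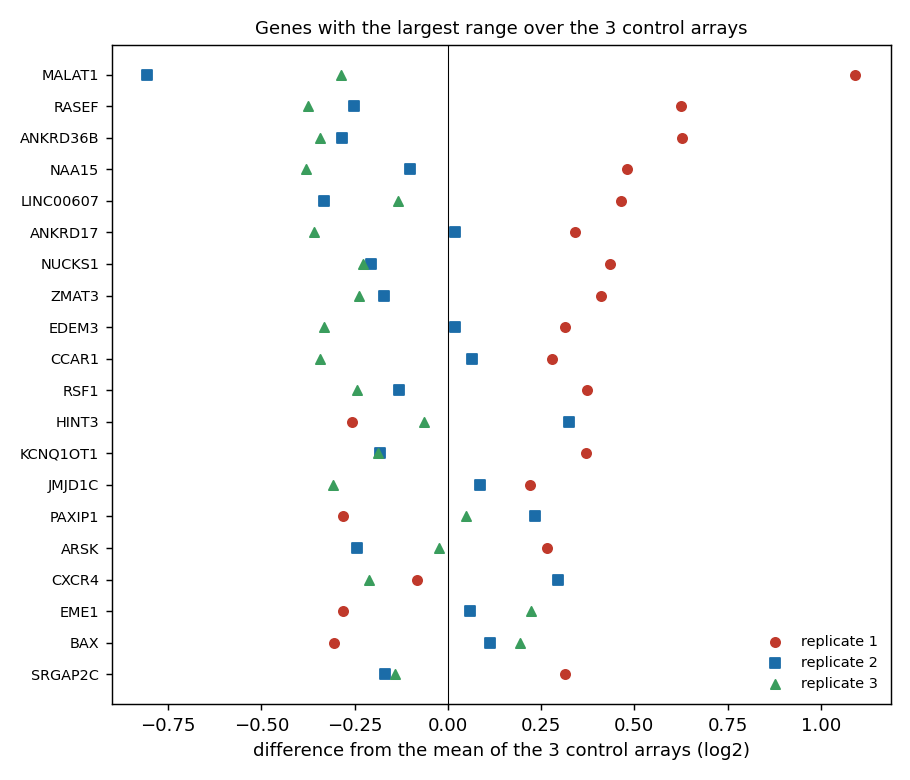
The 20 genes above background with the largest range over the 3 control arrays, each array as its difference from the gene's mean (log2). Replicate 1 was the highest array in 15 of the 20, and MALAT1, at 12.84, 10.95 and 11.46, had the largest range.

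Other probe sets repeated the pattern in some of these genes and not in others. MALAT1 had 12 probe sets. One with a mean close to that of the brightest read 11.71, 11.77 and 11.69 on the 3 arrays, a range of 0.08, whereas another read 11.85, 8.50 and 9.33, a range of 3.35. Of the 7 other probe sets for MALAT1 that were above the level on all arrays, 5 had replicate 1 highest as well, while their ranges differed. Over the 20 genes, 29 other probe sets lay above the background level and 11 of these had the same highest array, 5 of them in MALAT1. The rest were in CXCR4 (2 of 2), ZMAT3 (2 of 4), EDEM3 (1 of 2) and RASEF (1 of 1). The highest array was not repeated in NUCKS1 (0 of 5), in NAA15, RSF1 and JMJD1C (0 of 2 each), or in ANKRD17 and CCAR1 (0 of 1 each).

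A gene's level also depended on which of its probe sets was read. Of 10501 genes with 2 or more, 4680 (44.6%) had probe sets on both sides of the background level, with a median gap of 2.18 log2 units between highest and lowest. NRP1 had 4 probe sets between 11.58 and 4.31, with 2 above the level, and CD44, a hyaluronan receptor with many splice forms, had 13 between 12.03 and 3.98, with 7 above it. VEGFA had 4 between 8.80 and 6.33, with 2 above it. In ERG all 4, between 10.94 and 7.91, lay above it, and in COL4A1 both, at 12.99 and 11.81.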

How the data were processed

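The 3 control scrambled siRNA arrays were used, as grouped by the labels. The deposited values are log2 intensities per probe set. RMA, affy and limma are named in the submitters' processing notes, without versions, and RMA as usually run corrects background, normalizes quantiles across arrays and summarises probes. Whether all 6 arrays were normalized together, and any filter, were not given in the sources used here.

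The 62 array controls were dropped. Of 54613 others, 41091 had 1 symbol in the platform annotation, 1801 had several, from which no gene was named, and 11721 were not listed there. Old symbols were replaced by way of Entrez numbers with RefSeq names (GRCh38.p14), and 41037 probe sets matched. Each gene was read from its probe set with the highest mean, 9224 genes having 1. Genes with near-identical copies, such as ribosomal protein genes with their pseudogenes, may share probes and are uncertain. A gene with no probe set of 1 symbol was not analysed here.

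Genes above background exceeded, on all 3 arrays, the 95th percentile of 110 reference genes out of 123 listed. The 50 gene lists and the members were chosen with earlier results of these data known. Named were the 25 genes of highest level, genes among the 20 above background with the largest range, and list members. The 4 highest of a list and those below background were preferred, but not all of them are named in the text, and some lower members are. Promoter values were means over a gene's listed starts. Computation used Python 3.11.15, pandas 2.3.3, numpy 2.4.6 and matplotlib 3.10.9.

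Run on simulated data with 19725 genes, the rule called 100.0% of 5000 genes made above background and 3.8% of the others. The genes made above background were given levels well clear of the rest, so these shares follow from the settings and show only that the rule ran as written. Each simulated gene had 1 probe set, so the choice of the highest among several probe sets was not tried. How well it sorts measured genes with levels close to 7.74 was not tested. In the control arrays 382 genes lay on both sides of that level. Means carry SDs over n = 3 arrays, whose number limits the precision. Alternatives were the percentile of the level, the median of all probe sets as the level, the median over a gene's probe sets, leaving out probe sets that may cross-hybridise (suffixes _s_at and _x_at), centring, repeated quantile normalization, the first 250 bases of the window, genes with 3 or more probe sets, and each array left out. Genes with 1 start, and the other percentiles for promoters, were chosen after seeing the data.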

Additional observations from a re-analysis of the deposited data

How the results depend on the processing

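With the median of all probe sets as the level, 12659 rather than 8390 genes were above background; under every other alternative the count lay within 1.5 times of it. Endothelial identity genes above background stayed within 1.5 times of 30 under all alternatives run. They were 22 without _s_at and _x_at probe sets, where genes read only by such probe sets are not counted, and 29 to 32 under the others. Markers of other cells above background went from 11 to 22 with the 90th percentile and 34 with the median of all probe sets. The median SD was 0.0585 as reported, 0.0659 with the median of all probe sets as the level, 0.0647 without _s_at and _x_at probe sets, 0.0704 with centred arrays, 0.0487 with quantile normalization repeated, and 0.0432 to 0.0535 with 1 array left out. The median level of identity genes went from 11.04 to 10.38 with the median over a gene's probe sets, and that of markers of other cells from 6.10 to 5.51, and to 5.86 without _s_at and _x_at probe sets.

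The CpG ratio above background, 0.84 as reported, was 0.83 with the 90th percentile, the median over probe sets, or no _s_at and _x_at probe sets, 0.81 with the median of all probe sets as the level, 0.82 in the first 250 bases and 0.87 for genes with 1 start. Not above background it went from 0.57 to 0.51 (90th percentile), 0.62 (99th), 0.46 (median of all probe sets), 0.61 (median over probe sets), 0.58 (no _s_at and _x_at, or 1 start), 0.55 (first 250 bases) and 0.56 to 0.57 with 1 array left out. For identity genes it went from 0.35 to 0.34 without _s_at and _x_at probe sets, 0.32 in the first 250 bases and 0.31 for genes with 1 start. Genes with probe sets on both sides of the level went from 44.6% to 47.9% (90th percentile), 39.7% (99th), 48.6% (median of all probe sets) and 58% for genes with 3 or more probe sets. The cause of these shifts was not tested.

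Of the other 48 lists, the count above background moved by over 1.5 times in 15 with the 90th percentile, 5 with the 99th, 30 with the median of all probe sets, 9 with the median over probe sets, 11 without _s_at and _x_at probe sets, 2 without replicate 2 (fibroblast growth factors and WNT ligands), and 0 under the other alternatives. No paired analysis was possible because the values come from a single group and from no test.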

Other observations

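By gene type, 8173 of 16488 protein-coding genes were above background (49.6%), 147 of 2645 long noncoding RNA genes (5.6%) and 52 of 417 transcribed pseudogenes (12.5%). By chromosome, the share ran from 35.7% of 1320 genes on chromosome 19 to 46.9% of 776 on chromosome 9, and all 7 mitochondrially encoded genes that were measured lay above it. The genes had a median span on the genome of 19.9 kb where not above background, 27.2 kb in the top 10% of levels and 33.1 kb between these classes. No test was run on these shares.

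Scavenger and lipoprotein receptors gave 8 of 19 above background (42.1%, beside 42.5% of all genes). LIPG, the endothelial lipase, read 12.39, 12.42 and 12.30 on replicates 1, 2 and 3, and SCARB1, a receptor of high-density lipoprotein, 9.48, 9.60 and 9.57. OLR1, a receptor of oxidised low-density lipoprotein, read 4.10, 3.90 and 4.11, MSR1, a scavenger receptor of macrophages, 5.42, 5.37 and 5.30, and LRP1 7.03, 6.87 and 7.01, none above background. Endothelial lipase was thus above background on every array, and the scavenger receptors of macrophages and of inflamed endothelium in this list were not. Actin cytoskeleton genes gave 23 of 24 above background (95.8%), with a median of 12.46, and 13 without probe sets that may cross-hybridise. The exception was CNN1, the calponin of smooth muscle, at 6.19, 6.25 and 6.43, while CNN2 read 9.91, 9.98 and 10.01 and CNN3 11.72, 11.73 and 11.61.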
